A study of Callithrix jacchus with 20 samples.

Results

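Marmoset induced pluripotent stem cells (cjiPSCs) kept in TESR medium were compared with the same cells kept in cjPSCM. The 4 libraries that the sample labels give as cjiPSCs were used, out of 20 libraries in the series, with 2 biological replicates in each medium. All cells were of the line DPZ_cjiPSC2 (DPZ_cjiPSC#2 in the study), which had been reprogrammed from foetal fibroblasts with episomal plasmids and grew on Geltrex without feeder cells, so the replicates stand for cultures of 1 line and not for other lines or animals. TESR medium is TeSR-E8, a commercial defined medium for human pluripotent cells, which contains FGF2 and TGFβ. The study made cjPSCM from N2B27 basal medium with CHIR99021, A419259, IWR-1, vitamin C, LIF, TGFβ and FGF2. The media therefore differ in their basal formulation as well as in the added factors, and the parts of the 2 cannot be told apart in these libraries. The other libraries hold pre-mesendoderm (pre-ME) induced from the cjiPSCs of either medium with or without activin A (ActA), and germ cell-like and somatic cells sorted later.

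As background, LIF binds its receptor LIFR together with IL6ST (gp130) and acts through JAK kinases on STAT3, whose feedback inhibitor is SOCS3. CHIR99021 inhibits GSK3, the kinase that marks β-catenin for destruction, whereas IWR-1 inhibits tankyrases and thereby stabilises AXIN proteins, the scaffolds of the complex that destroys β-catenin. A419259 inhibits kinases of the SRC family. FGF2 acts through the ERK kinases, and TGFβ acts through SMAD2 and SMAD3. Primate pluripotent cells are called primed where they resemble the epiblast after implantation and naïve where they resemble the one before it, and the states are known to differ in their surface proteins and their metabolism.

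Between 7910911 and 20511950 reads were counted on genes in the 4 libraries, and 3 counts, the smallest level given here, stood for 1.65 to 4.47 normalised counts. Normalised counts are the authors' read counts divided by the size factor of the library. They are not divided by gene length, so levels are compared between libraries and not between genes, and in bulk RNA fewer cells of a type and less RNA per cell cannot be told apart. The SD of the log2 ratio of the 2 replicates over genes was 0.619 in TESR medium, 0.959 in cjPSCM and 0.311 to 0.566 in the other 8 groups of the series. Between 10.6% and 13.3% of counted reads lay outside annotated genes in 3 of the libraries, and 19.3% in cjPSCM replicate 2. In the other 8 groups this share was 17.2% to 23.2%, so that cjPSCM replicate 2 lay within their range and the 3 libraries below it. Of 20 core pluripotency genes tested, 4 were higher and 4 lower in cjPSCM by the test described next, with a median log2 fold change of -0.11, and 0 of the 4 rises and 3 of the 4 falls held in 2 stricter fits. Values are given in the order of replicates 1 and 2 of each medium.

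The raw counts were tested with edgeR in 1 model of all 20 libraries, and each fold change is cjPSCM over TESR medium on the log2 scale with its standard error. A gene is said to have risen or fallen in cjPSCM where its adjusted p was under 0.05. Of 15797 genes tested, 2853 rose (18.1%) and 2863 fell (18.1%) by this rule. With the further requirement of a log2 fold change beyond 2, 871 genes (5.51%) were higher and 579 (3.67%) lower. Without cjPSCM replicate 2 the lower genes numbered 1006, while the other 3 counts with 1 library left out lay between 437 and 649. The cjiPSC replicates varied more than those of the other groups, which share the estimate of the spread. Therefore 2 stricter fits stand beside it, edgeR on the 4 cjiPSC libraries alone and limma voom with 1 variance per group. They called 1062 and 933 genes higher and 732 and 645 lower at an adjusted p under 0.05. In all 3 fits 776 genes (4.91%) rose and 461 (2.92%) fell, and a call that holds in both stricter fits is called firm below. The lists are to be read beside these shares of all tested genes, 18.1% each way and 4.91% and 2.92% firmly. A list near them is not set apart from all genes. The 2 libraries of cjPSCM lay both above or both below those of TESR medium for 7925 genes, or 50.2%, so that a lack of overlap alone is common here. The median log2 fold change over all genes tested was -0.0004.

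**Figure D1:**
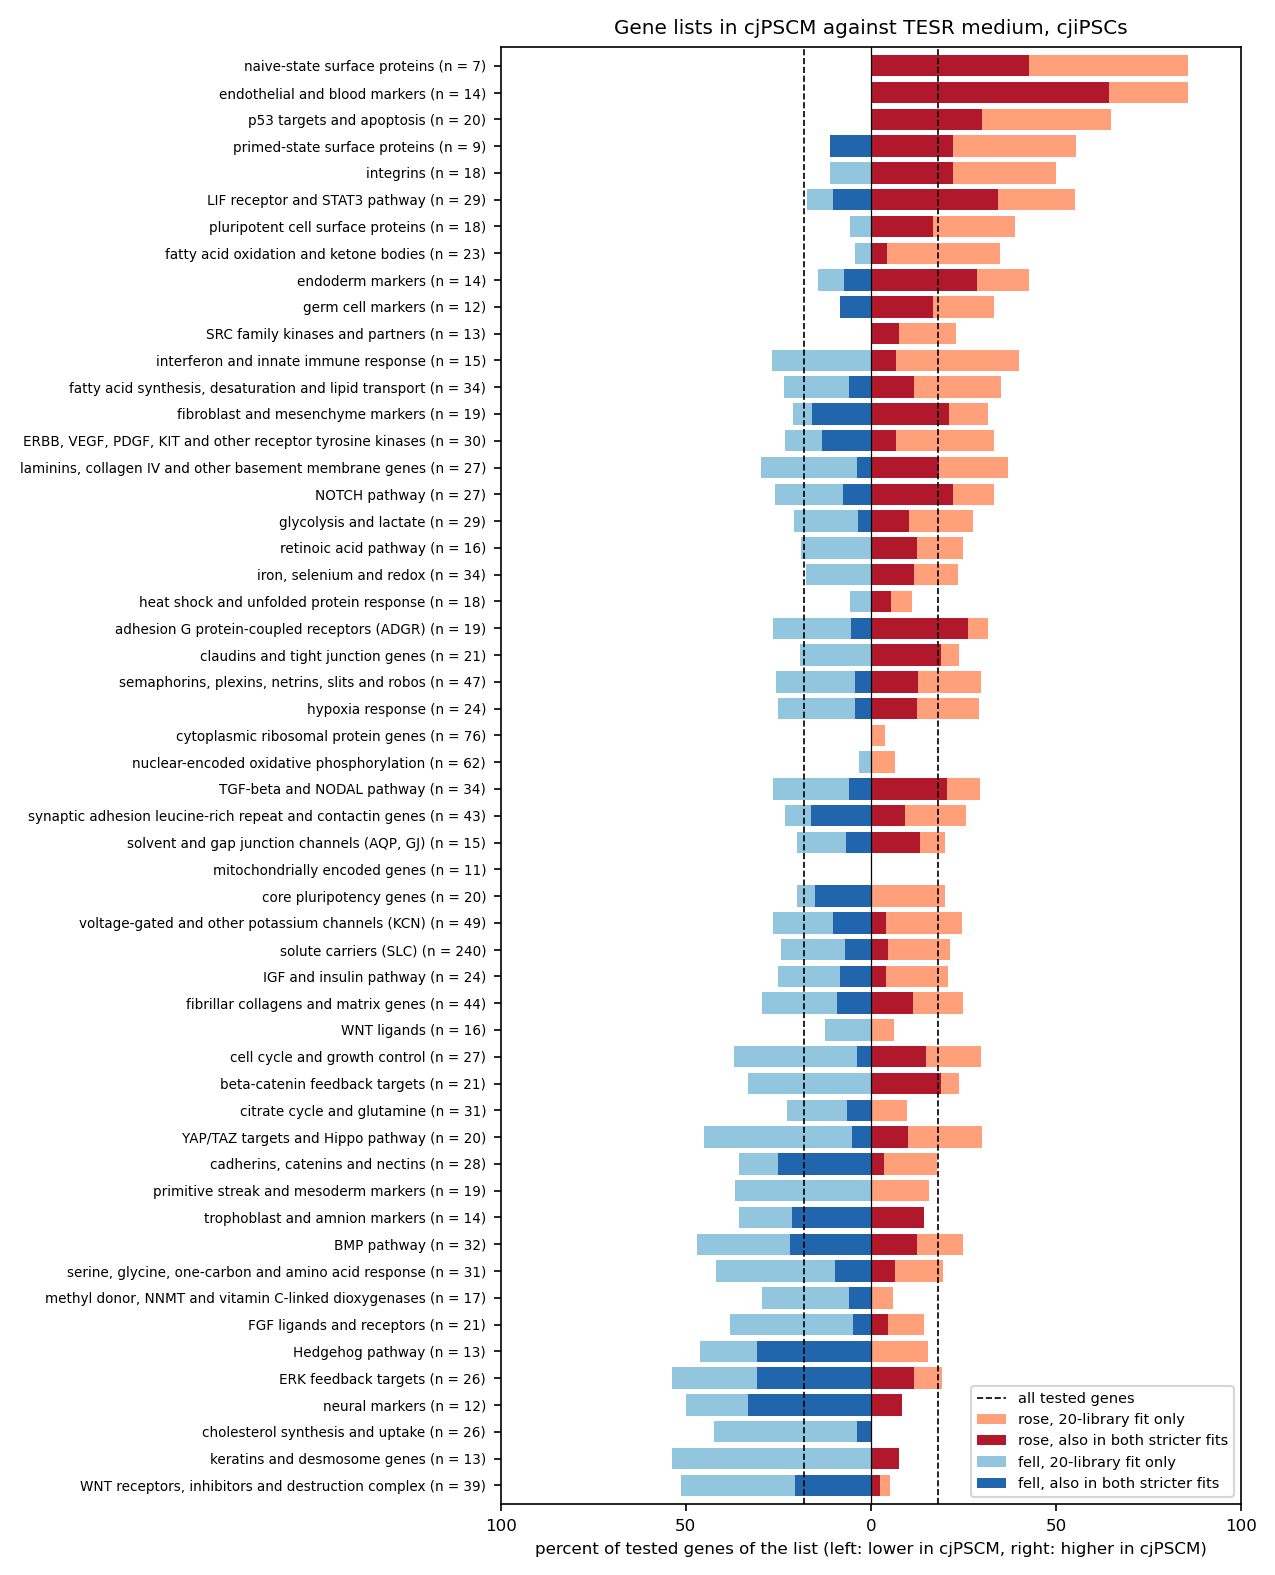
Percent of the tested genes of each list that rose (to the right) or fell (to the left) in cjPSCM against TESR medium at an adjusted p under 0.05 in edgeR. Dark bars are the genes called in both stricter fits as well. Light bars are the other genes called in the fit of 20 libraries. The legend labels them as that fit only, although 1 stricter fit can call them too. Dashed lines mark the 18.1% of all tested genes called each way. The bars of the naïve-state surface list (6 of 7) and of the endothelial and blood list (12 of 14) reach farthest to the right, and WNT receptors and inhibitors (20 of 39) lie at the bottom, to the left.

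LIF signalling is the pathway that the added cytokine of cjPSCM addresses. Of 29 tested members of the LIF receptor and STAT3 list, 16 rose and 5 fell, 10 and 3 of them firmly, and the median log2 fold change was 0.99. STAT3, the transcription factor activated by the pathway, had 1656 and 1455 normalised counts in TESR medium against 3866 and 2861 in cjPSCM, with a log2 fold change of 1.09 ± 0.14 and an adjusted p of 1.23e-05. The feedback inhibitor SOCS3 had 239 and 395 normalised counts in TESR medium against 942 and 741 in cjPSCM, at a log2 fold change of 1.43 ± 0.28 (adjusted p = 7.40e-04). Neither gene showed an overlap of the media, but for SOCS3 the call was lost with 1 variance per group (adjusted p = 0.124).

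The receptors moved in opposite directions. LIFR, the ligand-specific chain, had 1338 and 966 normalised counts in TESR medium against 246 and 305 in cjPSCM, a log2 fold change of -2.10 ± 0.26 (adjusted p = 8.08e-06). IL6ST, the chain shared with other cytokines of the family, had 776 and 651 normalised counts in TESR medium against 1696 and 1285 in cjPSCM and rose by 1.04 ± 0.19 (adjusted p = 4.31e-04, and 0.0996 with 1 variance per group). OSMR, which pairs with IL6ST to bind oncostatin M, rose from 83.2 and 61.1 to 426 and 322 normalised counts, a log2 fold change of 2.32 ± 0.23 (adjusted p = 8.35e-07). Of these 3 chains, LIFR was lower and the other 2 were higher in both cjPSCM libraries than in both TESR libraries. LIF itself was not tested because its counts were too low, and the same held for TFCP2L1, a transcription factor of naïve mouse cells downstream of STAT3.

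Among STAT factors and their known targets, STAT5A had 46.3 and 35.7 normalised counts in TESR medium against 369 and 377 in cjPSCM (3.12 ± 0.22, adjusted p = 1.81e-08). BCL3, a nuclear IκB protein that STAT3 induces in other cells, was close to the floor in TESR medium, with 1.10 and 0 normalised counts, against 432 and 368 in cjPSCM, and the ratio of the summed counts was 506-fold (95% counting interval 139.6 to 4189). Such intervals, given where a medium held 1 to 3 counts in all, cover counting error only. KLF5, a transcription factor of naïve and epiblast cells, had 54.5 and 118 normalised counts in TESR medium against 1290.5 and 768 in cjPSCM (3.67 ± 0.37, adjusted p = 1.05e-06). GBX2, a homeobox gene that STAT3 induces in mouse stem cells, fell instead, from 2387 and 3231 to 107 and 639 normalised counts (-2.98 ± 0.46, adjusted p = 9.57e-05). Both cjPSCM libraries lay below both TESR libraries for GBX2, with replicate 1 the lower of the pair. Besides LIFR and GBX2 the falls of the list, named after their values were seen, were CNTFR, the receptor chain for ciliary neurotrophic factor (2216 and 2646 to 707 and 923, -1.60 ± 0.17, firm), and the weaker PIM1, a kinase (-0.86 ± 0.16), and PIAS3, an inhibitor of STAT3 (-0.34 ± 0.12), neither of them firm.

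**Figure D2:**
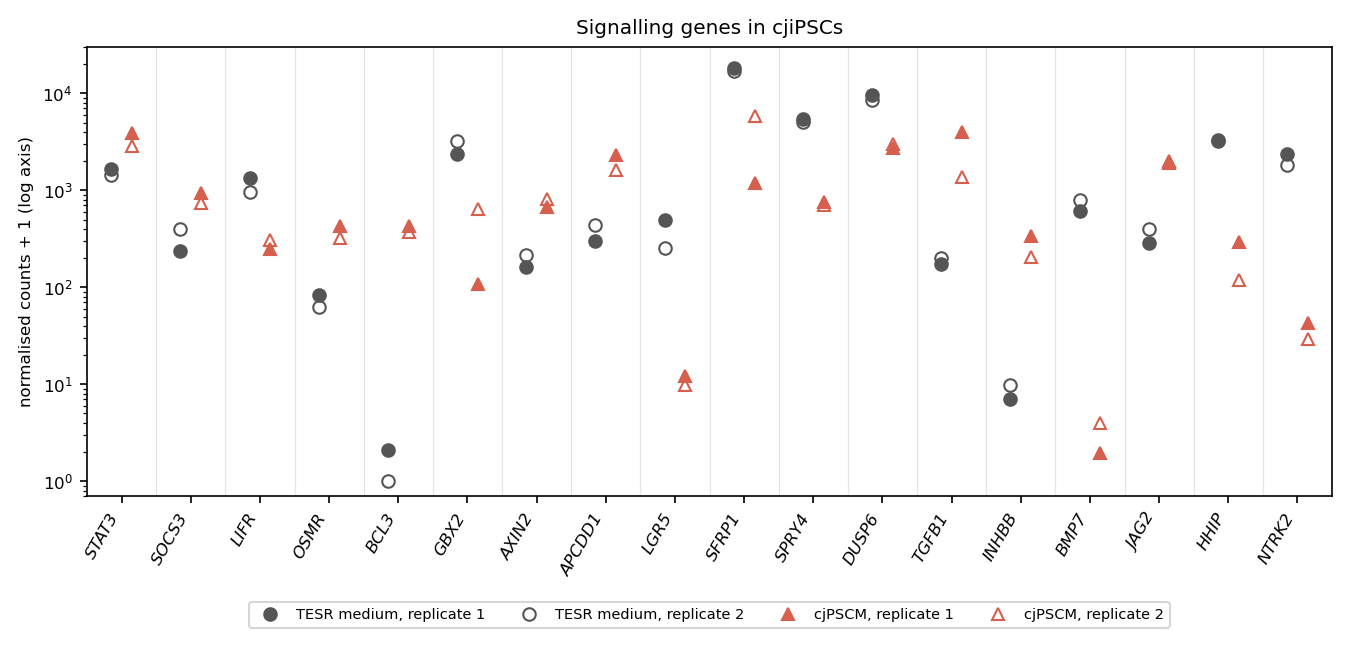
Normalised counts plus 1 on a log axis of 18 signalling genes in the 4 cjiPSC libraries, with circles for TESR medium, triangles for cjPSCM, filled symbols for replicate 1 and open symbols for replicate 2. LIFR, LGR5, SPRY4 and BMP7 lie lower in both cjPSCM libraries and BCL3, INHBB and AXIN2 higher.

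In the WNT pathway, falls outnumbered rises among receptors and secreted inhibitors, while the feedback targets of β-catenin were split. Of 39 receptors, inhibitors and parts of the destruction complex, 20 fell and 2 rose, 8 and 1 of them firmly, and 17 did not pass, with a median log2 fold change of -0.57. SFRP1, a secreted WNT antagonist, had 18436 and 17118 normalised counts in TESR medium against 1186 and 5819.6 in cjPSCM (-2.38 ± 0.43, adjusted p = 4.07e-04). SFRP2, its relative, had 12794 and 13071 normalised counts in TESR medium against 3446 and 4976 in cjPSCM (-1.64 ± 0.25, adjusted p = 8.25e-05). LGR5, the receptor for R-spondins, showed the largest fall of the list, from 496 and 252 to 11.3 and 8.89 normalised counts (-5.21 ± 0.42, adjusted p = 9.85e-08). GPC3, a glypican that binds WNT ligands, went from 572 and 487 to 67.8 and 105 normalised counts (-2.67 ± 0.24, adjusted p = 3.76e-07). For these 4 genes both cjPSCM libraries lay below both TESR libraries.

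Of 21 feedback targets of β-catenin, 5 rose and 7 fell, and the 4 firm calls were all higher in cjPSCM, while the falls numbered 3 without cjPSCM replicate 1. AXIN2, the inducible scaffold of the destruction complex, had 159.8 and 214 normalised counts in TESR medium against 672 and 808 in cjPSCM (1.98 ± 0.15, adjusted p = 4.24e-08). APCDD1, a membrane inhibitor of WNT signalling, had 303 and 442 normalised counts in TESR medium against 2333 and 1635 in cjPSCM (2.42 ± 0.21, adjusted p = 2.84e-07). CCND1, which encodes cyclin D1, had 1574 and 3181 normalised counts in TESR medium against 6879 and 6537 in cjPSCM (1.49 ± 0.23, adjusted p = 7.93e-05). Other targets of the same list went the opposite way in the fit of 20 libraries. SP5, a transcription factor that limits β-catenin targets, had 64.5 and 89.3 normalised counts in TESR medium against 20.7 and 23.7 in cjPSCM (adjusted p = 3.68e-04), and NKD1, an inhibitor of Dishevelled, had 279 and 356 normalised counts in TESR medium against 34.9 and 175 in cjPSCM (adjusted p = 0.00503). LEF1, the nuclear partner of β-catenin, had 100.3 and 118 normalised counts in TESR medium against 22.6 and 71.2 in cjPSCM (adjusted p = 0.00924). None of these 3 calls was firm, as the adjusted p with 1 variance per group was 0.473, 0.161 and 0.466.

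Of 16 tested genes of WNT ligands and their secretion, which include the secretion factors PORCN and WLS, 1 rose and 2 fell, none of them firmly. WNT2, a ligand of the canonical pathway, had 3.86 and 0 normalised counts in TESR medium against 203 and 218 in cjPSCM, a log2 fold change of 6.18 ± 0.64 (adjusted p = 1.46e-06, and 0.0505 with 1 variance per group). It was thus nearly undetected in TESR medium and present in both cjPSCM libraries.

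Of 26 feedback targets of ERK 14 fell, 5 rose and 7 did not pass, 8 of the falls and 3 of the rises being firm, with a median log2 fold change of -0.79. SPRY4, an inhibitor of receptor tyrosine kinase signalling that ERK induces, had 5402 and 5043 normalised counts in TESR medium against 752 and 710.0 in cjPSCM (-2.86 ± 0.20, adjusted p = 2.53e-08). DUSP6, the phosphatase of ERK, had 9708 and 8571 normalised counts in TESR medium against 2763 and 3019.5 in cjPSCM (-1.68 ± 0.16, adjusted p = 5.70e-07). ETV5, an ETS factor downstream of FGF, had 2786 and 2369 normalised counts in TESR medium against 457 and 671 in cjPSCM (-2.22 ± 0.27, adjusted p = 6.96e-06). The media did not overlap for any of these 3 genes. In the same list 3 members went up firmly, the inhibitor SPRED3 (2.12 ± 0.20), IER3, an immediate early gene of stress and survival (2.997 ± 0.28), and FOSL1, a subunit of the AP-1 factor (2.44 ± 0.47). EGR1, the immediate early gene most often read as ERK activity, had 977 and 1456 normalised counts in TESR medium against 841 and 149.7 in cjPSCM, so that cjPSCM replicate 1 lay just below the TESR range and replicate 2 far below it, and its fall (adjusted p = 0.033) was lost in both stricter fits (0.135 and 0.0929).

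Among 21 FGF ligands and receptors, 8 fell and 3 rose, with 1 firm call each way, and 5 fell without TESR replicate 1 or without cjPSCM replicate 1. FGF13, an intracellular FGF homologue that binds sodium channels and microtubules, fell from 1075 and 1337 to 294 and 273 normalised counts (-2.10 ± 0.15, adjusted p = 3.47e-08). FGF12, of the same intracellular group, rose from 133 and 121 to 331 and 362 (1.42 ± 0.18, adjusted p = 1.24e-05).

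In the TGFβ and NODAL list 10 of 34 genes rose and 9 fell, 7 and 2 of them firmly. Several ligand genes were among those that rose. TGFB1 had 173 and 199.5 normalised counts in TESR medium against 3996 and 1362 in cjPSCM (3.85 ± 0.37, adjusted p = 6.17e-07), and TGFB2 had 71.6 and 103 normalised counts in TESR medium against 357 and 391 in cjPSCM (2.12 ± 0.24, adjusted p = 3.52e-06). INHBB, the β subunit of activin B, had 6.06 and 8.93 normalised counts in TESR medium against 340.0 and 205 in cjPSCM (5.25 ± 0.49, adjusted p = 4.41e-07). All 3 ligands were higher in both cjPSCM libraries, with TGFB1 in replicate 1 well above replicate 2. Of the targets, PMEPA1, a feedback inhibitor of SMAD signalling, rose (100.3 and 143 normalised counts in TESR medium against 967 and 353 in cjPSCM, 2.47 ± 0.36, adjusted p = 4.57e-05).

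BMP genes were lower more often than higher, with 15 of 32 falling and 8 rising, 7 and 4 of them firmly, and 5 rising without TESR replicate 1 or without cjPSCM replicate 1. BMP7, a ligand of epithelia and neural tissue, had 608 and 786 normalised counts in TESR medium against 0.942 and 2.96 in cjPSCM and was 379.8-fold lower in cjPSCM (95% counting interval 129.7 to 1844, adjusted p = 4.41e-08). BMP3, an unusual ligand that antagonises the others, had 577 and 659.6 normalised counts in TESR medium against 5.65 and 10.4 in cjPSCM (-6.34 ± 0.36, adjusted p = 3.99e-09), and BMPER, an extracellular regulator of BMPs, fell from 136 and 171 to 5.65 and 10.4 normalised counts (-4.32 ± 0.34). BMP6, the ligand known for control of iron through hepcidin, went up from 39.1 and 73.0 to 777 and 160.1 (3.15 ± 0.50, adjusted p = 1.23e-04), with a wide gap between the cjPSCM replicates. HAMP, the hepcidin gene and a target of BMP and STAT3 signalling in liver, had no count in either TESR library and 23.5 and 35.6 normalised counts in cjPSCM, at least 9.66-fold higher against 3 counts per library.

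The ID genes, direct targets of BMP signalling through SMAD1 and SMAD5, did not move as a group. ID1 had 1296 and 1511 normalised counts in TESR medium against 1194 and 1127 in cjPSCM (adjusted p = 0.381). ID3 had 4487 and 4512 normalised counts in TESR medium against 3232 and 1972 in cjPSCM and fell in the fit of 20 libraries (adjusted p = 0.00458) but not in the stricter ones (0.107 and 0.14). ID4 fell firmly from 2921 and 3324 to 127 and 531 normalised counts (-3.31 ± 0.38, adjusted p = 4.79e-06).

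For NOTCH, 9 of 27 genes rose and 7 fell, 6 and 2 of them firmly. The ligand JAG2 had 286 and 399 normalised counts in TESR medium against 1923 and 2016 in cjPSCM (2.52 ± 0.18, adjusted p = 2.37e-08). DLL4, the ligand typical of endothelium, had 38.6 and 28.3 normalised counts in TESR medium against 429 and 114 in cjPSCM (2.98 ± 0.54, adjusted p = 3.84e-04), with replicate 1 of cjPSCM above replicate 2. DTX1, a ubiquitin ligase induced by NOTCH in lymphocytes, fell from 289 and 316 to 0.942 and 23.7 (-4.85 ± 0.63, adjusted p = 1.45e-05). Of 13 Hedgehog genes 6 fell and 2 rose, and the 4 firm calls were all lower. HHIP, a decoy receptor of Hedgehog ligands, had 3247 and 3309 normalised counts in TESR medium against 292 and 119 in cjPSCM (-3.98 ± 0.31, adjusted p = 7.21e-08). CDON, a co-receptor, fell from 387 and 308 to 33.9 and 102 (-2.46 ± 0.32), and SMO, the signal transducer, fell from 2969 and 3702 to 1122 and 1491 (-1.37 ± 0.16). In the retinoic acid list 4 of 16 rose and 3 fell, beside 18.1% of all tested genes called each way. DHRS3, which reduces retinaldehyde and is induced by retinoic acid, had 61.1 and 104 normalised counts in TESR medium against 1912 and 898 in cjPSCM (4.14 ± 0.37, adjusted p = 2.88e-07), and CRABP1, a cytoplasmic carrier of retinoic acid, rose from 24.2 and 10.4 to 160.1 and 200.1 (3.16 ± 0.32).

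Receptor tyrosine kinases and their ligands also differed between the media. Of 30 tested receptors and ligands of the ERBB, VEGF, PDGF, KIT and related families, 10 rose and 7 fell, 2 and 4 of them firmly. NTRK2, the receptor of brain-derived neurotrophic factor, had 2399.6 and 1823 normalised counts in TESR medium against 41.4 and 28.2 in cjPSCM (-5.90 ± 0.28, adjusted p = 5.02e-10). EGFR had 425 and 476 normalised counts in TESR medium against 88.5 and 94.9 in cjPSCM (-2.32 ± 0.20, adjusted p = 1.85e-07). PDGFRB, a receptor of mesenchymal cells and pericytes, had 1555 and 1869 normalised counts in TESR medium against 138 and 422 in cjPSCM (-2.67 ± 0.32, adjusted p = 6.75e-06). All 3 receptors were lower in both cjPSCM libraries. HBEGF, a ligand of EGFR, rose from 11 and 26.8 to 113 and 57.8 (2.38 ± 0.36, adjusted p = 7.40e-05). In the IGF and insulin list 5 of 24 rose (3 without TESR replicate 1 or cjPSCM replicate 1) and 6 fell, and the largest change was that of IGF2, a foetal growth factor, with 1666 and 2139.8 normalised counts in TESR medium against 70.6 and 38.5 in cjPSCM (-5.08 ± 0.30, adjusted p = 4.54e-09).

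Of 13 SRC family kinases and partners, 3 rose and none fell by edgeR on all 20 libraries, at an adjusted p under 0.05. PAG1, the membrane adaptor that brings the inhibitory kinase CSK to SRC kinases, had 29.2 and 28.3 normalised counts in TESR medium against 674 and 574 in cjPSCM (4.41 ± 0.28, adjusted p = 7.54e-09), and was the only firm call. LYN had 506 and 514 normalised counts in TESR medium against 1679 and 716 in cjPSCM (adjusted p = 0.00184, and 0.0676 with 1 variance per group). SRC itself had 837 and 1009.6 normalised counts in TESR medium against 1174 and 1119 in cjPSCM, a log2 fold change of 0.30 ± 0.14 that did not pass the test (adjusted p = 0.0979).

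At the cell surface, 7 genes that mark the naïve state in human cells were tested. Of these 6 rose and none fell in the fit of 20 libraries, 3 of them firmly, with a median log2 fold change of 2.16, but 8 of the 15 genes on the list had no entry or too few counts. One of the firm rises, PECAM1, is also on the endothelial and blood list, of which 12 of 14 genes rose, and IL6ST is on the LIF list too. SUSD2, a membrane protein used to sort naïve human cells, had 7.71 and 10.4 normalised counts in TESR medium against 203 and 47.4 in cjPSCM (3.86 ± 0.76, adjusted p = 7.67e-04, and 0.122 with 1 variance per group), so that replicate 1 was well above replicate 2. F11R, a junctional adhesion molecule, had 599 and 538 normalised counts in TESR medium against 1987 and 1515 in cjPSCM (1.60 ± 0.17, adjusted p = 1.37e-06). Genes that mark the primed state were not lower as a group, since 5 of 9 rose and 1 fell, 2 and 1 of them firmly. ALCAM, an adhesion molecule of the immunoglobulin family on this list, had 191 and 243 normalised counts in TESR medium against 1565 and 1055 in cjPSCM (2.60 ± 0.27, adjusted p = 1.63e-06). CDH2, N-cadherin, was the one that fell, with 4220.2 and 3919 normalised counts in TESR medium against 1087 and 1773 in cjPSCM (-1.54 ± 0.17, adjusted p = 3.63e-06).

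Of 18 surface markers common to pluripotent cells 7 rose and 1 fell, 3 and 0 of them firmly. PROM1, also known as CD133, had 1231 and 987 normalised counts in TESR medium against 3669.8 and 2561 in cjPSCM (1.47 ± 0.19, adjusted p = 1.45e-05), and CD46, a complement regulator, rose from 60.6 and 52.1 to 213 and 222 (1.90 ± 0.18). PODXL, which carries the TRA-1-60 epitope, had 3215 and 3937 normalised counts in TESR medium against 2512 and 4599.7 in cjPSCM and a log2 fold change of -0.03 ± 0.25 (adjusted p = 0.938).

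Adhesion genes differed in both directions. In the list of cadherins, catenins and nectins the rises lay near the shares of all tested genes, 18.1% and 4.91% firmly. Of 28 cadherins, catenins and nectins 10 fell and 5 rose, 7 and 1 of them firmly, with 10 rises without cjPSCM replicate 2. CDH12, a cadherin of neurons, fell from 190.1 and 147 to 15.1 and 2.96 normalised counts (-4.10 ± 0.45, adjusted p = 2.57e-06). CDH5, the cadherin of endothelial junctions, was the firm rise, with 671 and 619 normalised counts in TESR medium against 11857 and 3403 in cjPSCM (3.55 ± 0.43, adjusted p = 7.12e-06). Of 21 claudin and tight junction genes 5 rose and 4 fell, and all 4 firm calls were higher, among them CLDN5 (17.1 and 22.3 to 218 and 139, 3.21 ± 0.37) and ESAM (192 and 147 to 4372 and 1969, 4.18 ± 0.31), both components of endothelial junctions, and CGNL1, a scaffold of tight junctions (1335 and 2138 to 6193 and 6774, 1.89 ± 0.23). Of 13 keratin and desmosome genes 7 fell, none of them firmly, and 1 rose, DSC2, a desmosomal cadherin (391 and 419.9 to 1346 and 1032, 1.54 ± 0.17), which was a firm call. KRT8, a keratin of simple epithelia, had 2037 and 4067 normalised counts in TESR medium against 778 and 918 in cjPSCM (adjusted p = 0.00379, and 0.298 with 1 variance per group), and its partner KRT18 had 1647 and 2777 normalised counts in TESR medium against 743 and 642 in cjPSCM (adjusted p = 8.44e-04, and 0.209).

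Of 18 tested integrin genes 9 rose and 2 fell, 4 and 0 of them firmly, with a median log2 fold change of 1.00. ITGA2B, the αIIb chain of platelets and early blood progenitors, had 2.75 and 1.49 normalised counts in TESR medium against 312 and 406 in cjPSCM (7.13 ± 0.45, adjusted p = 7.88e-09). ITGA2, a collagen receptor chain, had 94.2 and 87.9 normalised counts in TESR medium against 1061 and 986 in cjPSCM (3.46 ± 0.24, adjusted p = 1.73e-08). ITGA1, another collagen receptor chain, had 2434 and 2688 normalised counts in TESR medium against 13323 and 6438 in cjPSCM (1.94 ± 0.25, adjusted p = 1.23e-05). In all 3 cases the media did not overlap.

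The basement membrane genes differed in both directions, with 10 of 27 rising and 8 falling, 5 and 1 of them firmly. Without TESR replicate 1 these numbers were 6 and 4, and 3 fell without cjPSCM replicate 1. LAMA2, a laminin chain of muscle and vessels, had 45.7 and 44.7 normalised counts in TESR medium against 2829 and 1951 in cjPSCM (5.70 ± 0.33, adjusted p = 4.54e-09). LAMA4, the laminin chain of vascular basement membranes, had 558 and 491 normalised counts in TESR medium against 3553 and 2315 in cjPSCM (2.46 ± 0.21), and COL4A2, a chain of collagen IV, had 5328 and 9650.4 normalised counts in TESR medium against 40453 and 30972 in cjPSCM (2.24 ± 0.23). NID2, a nidogen that links laminin and collagen IV, was the firm fall, from 1576 and 1135 to 149.8 and 271 (-2.74 ± 0.28, adjusted p = 1.43e-06). In the wider matrix list 13 of 44 genes fell and 11 rose (7 without TESR replicate 1). COL2A1, the main collagen of cartilage, had 5154 and 6315 normalised counts in TESR medium against 141 and 952 in cjPSCM (-3.45 ± 0.55, adjusted p = 1.24e-04). SPP1, the gene of osteopontin, had 9797 and 11993 normalised counts in TESR medium against 65.9 and 90.4 in cjPSCM (-7.16 ± 0.26, adjusted p = 4.19e-11), the smallest adjusted p among the genes that fell.

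**Figure D3:**
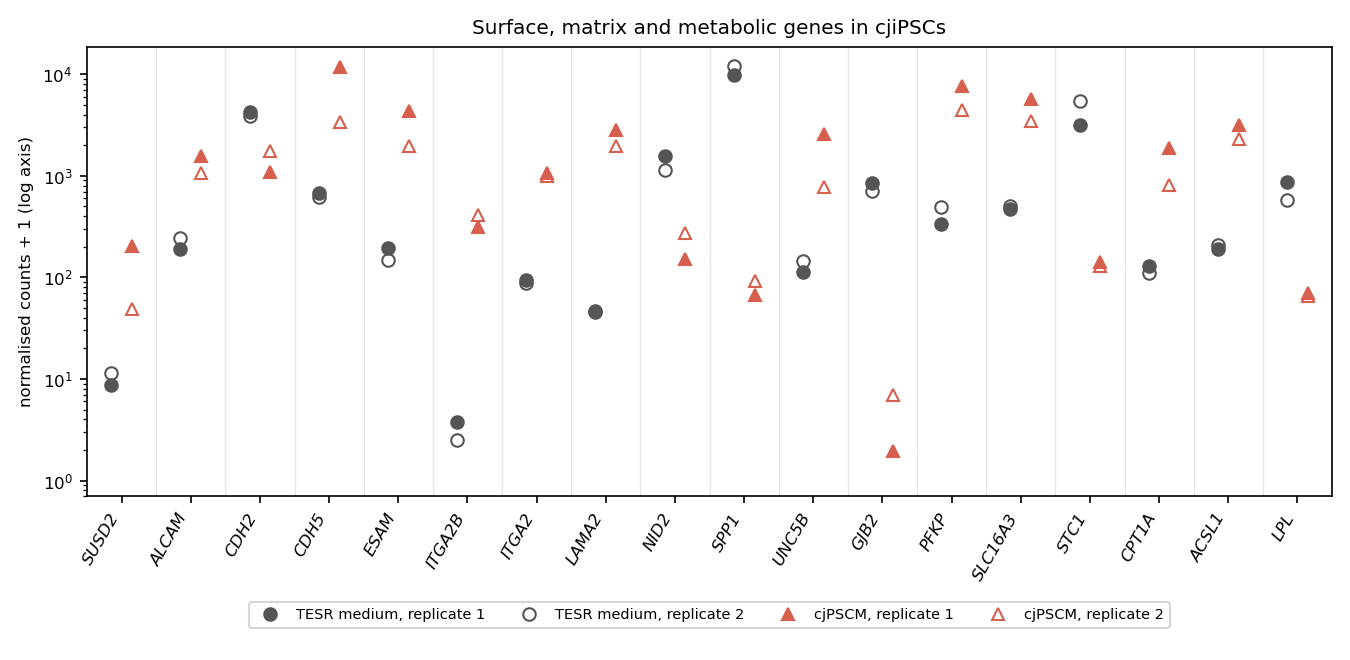
Normalised counts plus 1 on a log axis of 18 surface, matrix and metabolic genes in the 4 cjiPSC libraries, drawn as in the plot of signalling genes. SPP1, STC1 and LPL lie lower in both cjPSCM libraries, and ITGA2B, LAMA2, PFKP and CPT1A higher, while SUSD2 shows a gap between the cjPSCM replicates.

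Guidance receptors and neuronal surface genes changed in both directions, as did all tested genes, of which 18.1% were called each way. Of 47 semaphorins, plexins, netrins, slits and their receptors, 14 rose and 12 fell, 6 and 2 of them firmly, and 9 rose without TESR replicate 1 or without cjPSCM replicate 1. ROBO4, the Roundabout receptor of endothelium, had 55.6 and 58.1 normalised counts in TESR medium against 746 and 182 in cjPSCM (3.03 ± 0.48, adjusted p = 1.09e-04). SLIT3, a ligand of this family, had 269.9 and 474 normalised counts in TESR medium against 3484 and 1553 in cjPSCM (2.78 ± 0.30, adjusted p = 2.43e-06). Both were higher in each cjPSCM library than in either TESR library. UNC5B, a netrin receptor of vessels, had 112 and 144 normalised counts in TESR medium against 2559 and 779.7 in cjPSCM (3.72 ± 0.40, adjusted p = 2.43e-06), and ROBO2, a SLIT receptor of axons, had 502 and 524 normalised counts in TESR medium against 59.3 and 50.4 in cjPSCM (-3.23 ± 0.38, adjusted p = 6.54e-06). Of 43 synaptic adhesion genes, 11 rose and 10 fell (16 without cjPSCM replicate 2), including CNTN1, a contactin (20.9 and 23.8 to 1117 and 765, 5.40 ± 0.33), and LINGO1, a partner of the Nogo receptor (229 and 292 to 13.2 and 57.8, -3.00 ± 0.45). Adhesion G protein-coupled receptors rose in 6 of 19 cases and fell in 5 (3 without TESR replicate 1 or cjPSCM replicate 1), and 5 of the 6 rises were firm. ADGRG6, a receptor for collagen IV and laminin, had 139.9 and 127 normalised counts in TESR medium against 1496 and 1048 in cjPSCM (3.23 ± 0.21, adjusted p = 1.06e-08).

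Of 49 potassium channel genes 13 fell and 12 rose (7 without TESR replicate 1), but 11 of the falls and 2 of the rises exceeded a log2 fold change of 2. KCNQ5, a channel of the neuronal M current, had 167 and 207 normalised counts in TESR medium against 0.942 and 1.48 in cjPSCM and was 155-fold lower in cjPSCM (counting interval 42.6 to 1281). Gap junction genes went both ways. GJB2, connexin 26, had 843 and 701 normalised counts in TESR medium against 0.942 and 5.93 in cjPSCM (-8.01 ± 0.45, adjusted p = 3.51e-09), and GJA5, connexin 40 of arteries, had 103 and 137 normalised counts in TESR medium against 1205 and 965 in cjPSCM (3.19 ± 0.27, adjusted p = 1.41e-07). Solute carriers had 51 of 240 tested genes higher and 58 lower, 11 and 17 of them firmly, with a median log2 fold change of -0.04. Over all tested genes 18.1% were called each way, and 4.91% rose and 2.92% fell firmly. SLC17A8, a vesicular glutamate transporter, had 11.6 and 34.2 normalised counts in TESR medium against 1200.0 and 422 in cjPSCM (5.41 ± 0.53, adjusted p = 8.79e-07), and SLC37A1, a phosphate-linked exchanger of glucose 6-phosphate, had 7.16 and 4.47 normalised counts in TESR medium against 273 and 240.1 in cjPSCM (5.30 ± 0.35, adjusted p = 1.06e-08).

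Genes of energy metabolism showed few coordinated differences. Of 62 nuclear-encoded genes of oxidative phosphorylation 4 rose and 2 fell, with a median log2 fold change of 0.06, and none of these calls was firm. None of the 11 mitochondrially encoded genes tested passed the test in either direction. Among 29 genes of glycolysis and lactate 8 rose (5 without cjPSCM replicate 1) and 6 fell, 3 and 1 of them firmly. PFKP, the platelet isoform of phosphofructokinase, had 332 and 488 normalised counts in TESR medium against 7579 and 4439.6 in cjPSCM (3.88 ± 0.24, adjusted p = 7.88e-09). SLC16A3, the lactate exporter MCT4, had 475 and 502 normalised counts in TESR medium against 5656 and 3482 in cjPSCM (3.21 ± 0.21, adjusted p = 1.05e-08), and HK1, the constitutive hexokinase, rose from 1633 and 1864 to 5372 and 3350.1 (1.31 ± 0.18). HK2, the inducible hexokinase, had 305 and 404 normalised counts in TESR medium against 66.9 and 228 in cjPSCM and fell in the fit of 20 libraries only (adjusted p = 0.0079, and 0.0914 with 1 variance per group). ENO3, the muscle enolase, fell firmly from 1357 and 1578 to 419 and 492 (-1.71 ± 0.17).

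The hypoxia list held 7 rises and 6 falls among 24 genes, with 3 rises without cjPSCM replicate 1 and 12 without cjPSCM replicate 2. STC1, a secreted glycoprotein induced by HIF, had 3139 and 5449.9 normalised counts in TESR medium against 141 and 129 in cjPSCM (-5.00 ± 0.30, adjusted p = 5.39e-09). ADM, adrenomedullin, went the other way, with 68.3 and 112 normalised counts in TESR medium against 784 and 424 in cjPSCM (2.80 ± 0.35, adjusted p = 1.06e-05), as did EPAS1, the gene of HIF-2α, with 214 and 269.5 normalised counts in TESR medium against 2229 and 883 in cjPSCM (2.69 ± 0.35, adjusted p = 1.55e-05).

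Lipid genes contained larger differences. Of 34 genes of fatty acid synthesis and lipid transport 12 rose and 8 fell, 4 and 2 of them firmly. ABCG1, a cholesterol exporter, had 19.8 and 8.93 normalised counts in TESR medium against 1204 and 379 in cjPSCM (5.60 ± 0.58, adjusted p = 1.35e-06). ACSL1, which activates long-chain fatty acids, had 189 and 208 normalised counts in TESR medium against 3177 and 2319.8 in cjPSCM (3.78 ± 0.22, adjusted p = 4.54e-09). LPL, lipoprotein lipase, had 876 and 582 normalised counts in TESR medium against 68.8 and 65.2 in cjPSCM (-3.47 ± 0.28, adjusted p = 1.11e-07). The first 2 of these genes were higher in both cjPSCM libraries and LPL was lower. CPT1A, which brings fatty acids into mitochondria, had 128 and 109 normalised counts in TESR medium against 1883 and 803 in cjPSCM (3.47 ± 0.34, adjusted p = 8.58e-07), and 8 of 23 genes of fatty acid oxidation rose with 1 falling, 1 of them firmly, and 5 rose without TESR replicate 2 and 3 without cjPSCM replicate 1. Cholesterol synthesis leaned downwards in small steps, as 11 of 26 genes fell and none rose in the fit of 20 libraries, with a median log2 fold change of -0.25. Of these 11 falls 1 was firm, and without TESR replicate 2 the falls numbered 7.

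Amino acid genes fell more often than they rose, with 13 of 31 genes of serine, glycine and one-carbon metabolism and the amino acid response lower and 6 higher, 3 and 2 of them firmly. SLC7A3, a transporter of cationic amino acids, had 418 and 332 normalised counts in TESR medium against 11.3 and 99.3 in cjPSCM (-2.94 ± 0.48, adjusted p = 1.40e-04). ASNS, asparagine synthetase, had 2632 and 2177 normalised counts in TESR medium against 1381 and 1355 in cjPSCM (adjusted p = 1.12e-04, and 0.0718 on the 4 libraries alone). GLUL, glutamine synthetase, counted in the list of the citrate cycle and glutamine, fell firmly from 5269 and 4594 to 1486 and 1992 (-1.53 ± 0.13, adjusted p = 2.35e-07). Of 34 genes of iron, selenium and redox 8 rose (5 without cjPSCM replicate 1) and 6 fell. NQO1, a quinone reductase under NRF2, rose from 133 and 75.9 to 479 and 309.8 (1.85 ± 0.26). Vitamin C is a cofactor of dioxygenases, and in the list of methyl donors and such enzymes 5 of 17 genes fell (9 without cjPSCM replicate 2) and 1 rose. TET1, a dioxygenase of methylated DNA, had 615 and 569 normalised counts in TESR medium against 340.0 and 442 in cjPSCM and fell in the fit of 20 libraries only (adjusted p = 0.00592, and 0.269 with 1 variance per group).

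In the list of p53 targets and apoptosis regulators 13 of 20 genes rose and none fell by edgeR on all 20 libraries, with 6 firm calls and a median log2 fold change of 0.66. CDKN1A, the cell cycle inhibitor p21, had 446 and 673 normalised counts in TESR medium against 3691 and 1992 in cjPSCM (2.35 ± 0.30, adjusted p = 1.29e-05). PHLDA3, an inhibitor of AKT, had 77.1 and 116 normalised counts in TESR medium against 521 and 274 in cjPSCM (2.07 ± 0.26, adjusted p = 1.08e-05). The other firm rises of the list had log2 fold changes from 1.09 to 1.56 and included PLK3, a stress kinase, ZMAT3, an RNA-binding protein, and BBC3, the apoptosis gene PUMA. In the list of cell cycle and growth control 8 of 27 rose and 10 fell (5 without cjPSCM replicate 2). CDKN2A, which encodes p16 and ARF, had 175 and 231 normalised counts in TESR medium against 2215 and 1205 in cjPSCM (3.08 ± 0.24, adjusted p = 8.16e-08), and MYCN had 1713 and 2186 normalised counts in TESR medium against 434 and 1193 in cjPSCM (adjusted p = 0.00466, and 0.0541 with 1 variance per group). Of 20 targets of YAP and TAZ and members of the Hippo pathway 6 rose and 9 fell, 2 and 1 of them firmly. The median log2 fold change of this list was -0.03, so that it did not move as a group. Its firm rises were ANKRD1 (989 and 3292 to 12293 and 7407, 2.21 ± 0.43) and CCN1 (1267 and 1976 to 6632 and 4398, 1.76 ± 0.22). Of 18 heat shock and unfolded protein genes 2 rose and 1 fell. Of 15 interferon and innate immune genes 6 rose (3 without TESR replicate 1 or cjPSCM replicate 1) and 4 fell, 1 and 0 of them firmly. By contrast, 3 of 76 tested ribosomal protein genes rose and none fell in the same fit, and none of the 3 calls was firm.

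Among the lists of cell type markers, the endothelial and blood list had the largest share of genes called. Of 14 tested genes 12 rose and none fell by edgeR on all 20 libraries, 9 of them firmly, with a median log2 fold change of 3.24. TIE1, an endothelial receptor kinase, had 166 and 177 normalised counts in TESR medium against 4078 and 1906 in cjPSCM (4.12 ± 0.32, adjusted p = 7.21e-08). The ETS factor ERG had 45.2 and 49.1 normalised counts in TESR medium against 1553 and 921 in cjPSCM (4.71 ± 0.31, adjusted p = 1.06e-08), and FLI1, of the same family, had 218 and 292 normalised counts in TESR medium against 2988 and 1555 in cjPSCM (3.16 ± 0.26, adjusted p = 1.10e-07). RUNX1, a factor of blood stem cells, had 14.3 and 35.7 normalised counts in TESR medium against 260.0 and 178 in cjPSCM (3.31 ± 0.37, adjusted p = 3.54e-06). For all 4 genes both cjPSCM libraries exceeded both TESR libraries. The summed level of the list was 4189.9 and 3883 normalised counts in TESR medium, and 45082 and 21059.5 in cjPSCM. Not every defining marker followed. PTPRC, the pan-leukocyte antigen CD45, had no count in any of the 4 libraries, GATA1 and SPI1 had too few counts to be tested, and VWF, a marker of mature endothelium, had 16.0 and 10.4 normalised counts in TESR medium against 39.6 and 25.2 in cjPSCM (adjusted p = 0.0801). LYVE1, a lymphatic marker, had 6.06 and 4.47 normalised counts in TESR medium against 409.7 and 41.5 in cjPSCM, with replicate 1 of cjPSCM far above replicate 2 (adjusted p = 2.46e-04, and 0.0579 with 1 variance per group).

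The 15 largest rises over all genes, named for their size alone, included several genes with known roles in vessels or blood that are on no list of this kind and were not tested as a group. PROCR, the endothelial receptor of protein C, had 4.96 and 8.93 normalised counts in TESR medium against 517 and 219 in cjPSCM (5.85 ± 0.49, adjusted p = 1.52e-07). STAB1, a scavenger receptor of sinusoidal endothelium and macrophages, had 8.26 and 14.9 normalised counts in TESR medium against 619 and 821 in cjPSCM (6.07 ± 0.39, adjusted p = 1.02e-08). The blood transcription factors LYL1 (35.3 and 35.7 to 2476 and 1367, 5.74 ± 0.38) and CBFA2T3 (6.06 and 5.96 to 516 and 322, 6.08 ± 0.49) were among them as well. Whether a subset of the cells or all of them carried these transcripts was not tested.

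The other lineage lists were mixed. Of 14 endoderm genes 6 rose and 2 fell, 4 and 1 of them firmly, and all of these changes exceeded a log2 fold change of 2 in size. GATA6 had 136 and 182 normalised counts in TESR medium against 2821 and 2232 in cjPSCM (4.00 ± 0.30, adjusted p = 4.77e-08) and HHEX, a factor of endoderm and endothelium, had 39.7 and 40.2 normalised counts in TESR medium against 795 and 579.6 in cjPSCM (4.09 ± 0.33, adjusted p = 9.32e-08). The falls were RBP4, a carrier of retinol (62.2 and 121 to 10.4 and 34.1, -2.11 ± 0.42), and PDGFRB, given above with the receptor tyrosine kinases. Of 12 neural genes 6 fell and 1 rose, 4 and 1 of them firmly. LHX2, a forebrain and eye factor, had 422 and 569 normalised counts in TESR medium against 20.7 and 41.5 in cjPSCM (-4.06 ± 0.33, adjusted p = 1.14e-07). Of 14 trophoblast and amnion genes 5 fell and 2 rose, 3 and 2 of them firmly. PGF, placental growth factor, had 533 and 680.5 normalised counts in TESR medium against 80.1 and 68.2 in cjPSCM (-3.03 ± 0.27, adjusted p = 2.96e-07), and GATA2, a factor of trophoblast and also of blood cells, rose from 32.5 and 59.6 to 948 and 652 (4.23 ± 0.27).

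Of 19 genes of the primitive streak and mesoderm 7 fell and 3 rose, none of them firmly. EOMES, a factor of mesoderm and endoderm, fell from 329 and 536 to 4.71 and 1.48 (-6.94 ± 0.59, adjusted p = 1.57e-07), but not with 1 variance per group (adjusted p = 0.252). CDX2, a factor of posterior mesoderm, was 68.4-fold lower in cjPSCM (counting interval 12.0 to 2729.7), with 42.4 and 31.3 normalised counts in TESR medium against 0 and 1.48 in cjPSCM, and this call too was lost with 1 variance per group (adjusted p = 0.339). Of 12 germ cell genes 4 rose and 1 fell, and of 19 fibroblast and mesenchyme genes 6 rose and 4 fell.

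The largest falls over all genes included developmental transcription factors. POU4F2, a factor of sensory neurons and retinal ganglion cells, had 307 and 396 normalised counts in TESR medium against 0.942 and 0 in cjPSCM, 575-fold lower in cjPSCM (counting interval 103 to 22749.8). TBX1, a factor of the pharyngeal region, had 868 and 1632 normalised counts in TESR medium against 4.71 and 43.0 in cjPSCM (-5.91 ± 0.47, adjusted p = 7.95e-08). TBX3, a factor of naïve mouse cells and of endoderm, rose instead, with 12.1 and 14.9 normalised counts in TESR medium against 431 and 353 in cjPSCM (4.88 ± 0.32, adjusted p = 1.14e-08). CYP1B1, a cytochrome P450 induced by the aryl hydrocarbon receptor, had 183 and 217 normalised counts in TESR medium against 11316 and 7172 in cjPSCM (5.53 ± 0.43, adjusted p = 6.26e-08).

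The 2 cjPSCM libraries differed from each other in a one-sided way. Over the tested genes, 843 were more than 4-fold higher in replicate 2 and 94 in replicate 1, against 66 and 88 for replicates 2 and 1 of TESR medium, counted on normalised counts plus 1. With a pseudocount of 10 these numbers were 242 and 23 for cjPSCM and 7 and 0 for TESR medium. Of the 843 genes, 625 had replicate 1 below both TESR libraries and 556 had replicate 2 above both. Pearson's correlation of log2 levels across genes, which are not independent replicates, was 0.956 for the cjPSCM pair and 0.980 for the TESR pair, and lay between 0.902 and 0.920 for pairs across the media. Replicate 1 stood higher than replicate 2 for 64.3% of the 871 genes above both thresholds and for 23.5% of the 579 below them, compared with 53% of all tested genes. The differences between the media were thus wider in replicate 1 for most genes past the thresholds.

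**Figure D4:**
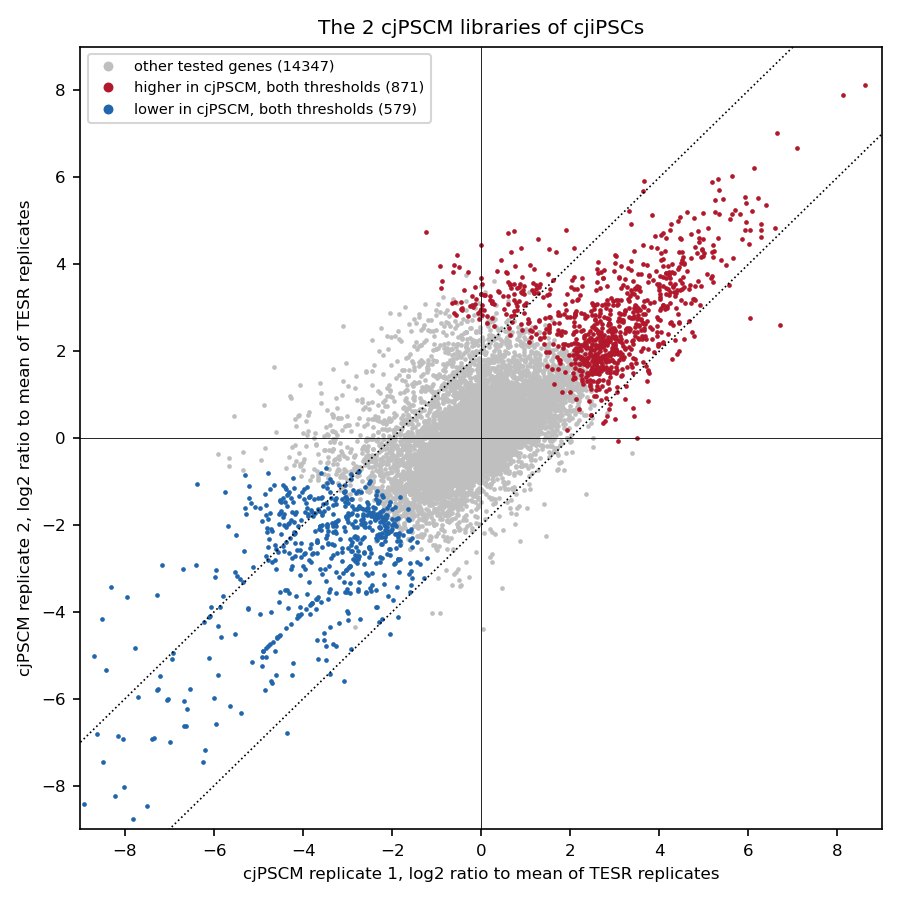
Log2 ratio of each cjPSCM replicate to the mean of the TESR replicates for all 15797 tested genes, on normalised counts plus 1, with replicate 1 on the horizontal and replicate 2 on the vertical axis. Red marks the 871 genes higher and blue the 579 genes lower in cjPSCM at both thresholds, and the dotted lines mark a 4-fold gap between the replicates. More genes (843) lie above the upper line than below the lower one (94).

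Among genes higher in replicate 2, the neural progenitor factor OLIG3 had 295 and 274 normalised counts in TESR medium, and 16.0 and 661 in cjPSCM replicates 1 and 2. KRT19, a keratin of simple epithelia, had 549 and 812 normalised counts in TESR medium against 71.6 and 1094 in cjPSCM. For both genes replicate 1 lay far below the TESR libraries and replicate 2 above them, and neither passed the test (adjusted p = 0.886 and 0.786). In the opposite direction NPTX2, a neuronal pentraxin, had 7.16 and 1.49 normalised counts in TESR medium against 555 and 31.1 in cjPSCM, and its rise (adjusted p = 2.05e-04) was lost with 1 variance per group (adjusted p = 0.0844). The summed level of the endothelial and blood list given above was also higher in replicate 1, and that of the core pluripotency list was 34713 and 41071 normalised counts in TESR medium against 20846 and 32180.0 in cjPSCM. The part of these marker genes, of depth and of reads outside genes in the gap between the replicates was not tested.

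The pre-ME libraries, 4 derived from cells of each medium and none of them on either side of the contrast above although they share its estimate of the spread, gave a second reading after induction. There 2493 genes (15.8%) were higher and 2510 (15.9%) lower where the cells had come from cjPSCM. Of the 871 genes higher in cjiPSCs in cjPSCM, 585 (67.2%) were also higher in pre-ME and 10 lower, and of the 579 lower ones, 388 (67.0%) were also lower and 2 higher. The median log2 fold change of these 2 sets in pre-ME was 1.62 and -1.29, compared with 2.95 and -2.86 in the cjiPSCs that had chosen them. The 2 sets were chosen by their size in the cjiPSCs, so these medians are given as a description and not as a test of a smaller difference in pre-ME. Of the 871 and 579 genes, 249 and 201 passed the test of the difference between the stages.

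Some genes had similar log2 fold changes in both stages. For IGF2 the log2 fold change in pre-ME was -5.18 ± 0.24, for STAT5A 3.11 ± 0.15, for LAMA4 2.42 ± 0.15, for SLC16A3 3.20 ± 0.15 and for GATA2 4.15 ± 0.18, and the test of the difference between the stages did not pass for any of the 5. CPT1A had 4.21 ± 0.26 and UNC5B 3.86 ± 0.28, and here too the test of the difference did not pass. Of the 14 endothelial and blood genes 11 were higher and none lower in pre-ME from cjPSCM by the same edgeR fit, with ERG at 4.37 ± 0.23, ESAM at 3.68 ± 0.22 and CDH5 at 3.18 ± 0.31, and for 2 of the 14, RUNX1 and the angiopoietin receptor TEK, the latter named after its values were seen, the difference between the stages passed.

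Other genes differed between the stages by the test of that difference. LIFR was lower in cjPSCM by a log2 fold change of -2.10 ± 0.26 in cjiPSCs but had -0.23 ± 0.19 in pre-ME (adjusted p of the difference = 0.00148). DUSP6 went from -1.68 ± 0.16 to -0.16 ± 0.11 (difference 1.58e-04) and FGF13 from -2.10 ± 0.15 to -0.21 ± 0.10 (difference 1.50e-05). AXIN2 and HBEGF changed sign, with an adjusted p under 0.05 by edgeR in each stage. AXIN2 had 1.98 ± 0.15 in cjiPSCs and -0.29 ± 0.09 in pre-ME (adjusted p of the difference = 2.03e-06), and HBEGF had 2.38 ± 0.36 and -2.47 ± 0.21 (adjusted p of the difference = 5.36e-06). For SOCS3 the difference between the stages (1.76) exceeded its log2 fold change in cjiPSCs given above, so that its estimate in pre-ME was negative.

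**Figure D5:**
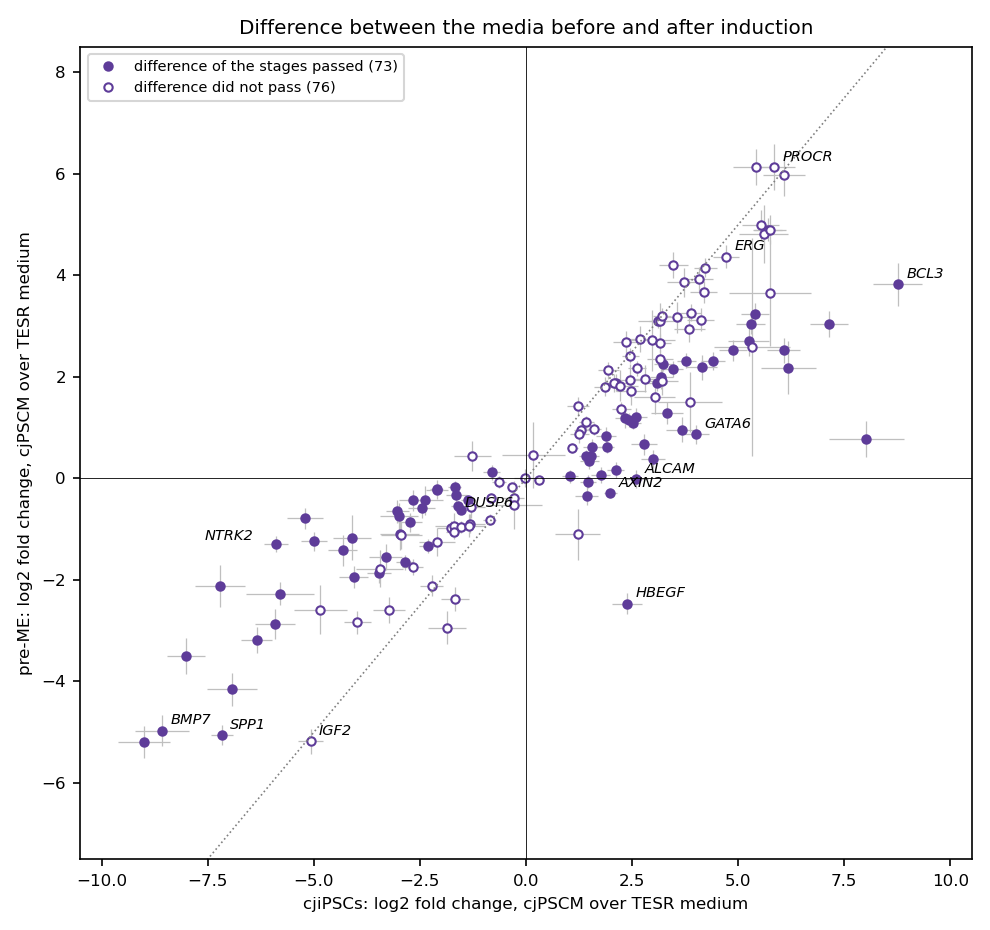
Log2 fold change of cjPSCM over TESR medium in cjiPSCs (horizontal) and in the pre-ME derived from them (vertical) for the genes named in the text, with bars of 1 standard error from edgeR. Pre-ME values are means over induction with and without ActA. Filled points are genes whose difference between the stages passed an adjusted p under 0.05. Most points lie in the lower left and upper right parts, while HBEGF and AXIN2 lie to the right below 0.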

How the data were processed

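Poly(A) RNA of cjiPSCs (line DPZ_cjiPSC2, written DPZ_cjiPSC#2 in the study) and of cells derived from them was sequenced by the authors in 20 libraries of 10 groups, with 2 biological replicates in each, and the 4 cjiPSC libraries are described here. Per the labels RNA had been isolated with the PicoPure or the RNeasy Plus kit, while the study's methods also name the NucleoSpin RNA Plus kit, and the kit of each sample is not given in the sources used here. Per the labels, libraries were made with the NEBNext Ultra II Directional kit, which keeps strand, while the study's methods name the NEBNext Ultra II kit. Per the submitters' processing notes and the study's methods, the authors checked reads with FastQC 0.11.8, mapped them with STAR 2.7.0a to calJac4 and counted them with HTSeq 0.11. The deposited raw counts are whole reads per gene and were the input of every test. The deposited normalised signal is the count divided by a size factor of DESeq2 and served for levels. The strand setting of the counting is not given in the sources used here, so overlapping and near-identical genes can share reads. The 2 summary lines of the counting, reads outside annotated genes (10.6% to 23.2% of a library) and ambiguous reads (0.268% to 0.350%), were left out. Genes received 4784964 to 22067099 reads in a library.

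Groups came from the sample labels. The test was edgeR's quasi-likelihood test on the raw counts (version 4.0.16 with R 4.3.3, glmQLFit, TMM normalisation, filterByExpr by group) in 1 model of 20 libraries with 10 residual degrees of freedom, and p-values were adjusted by Benjamini-Hochberg over all 15797 genes tested. The p-values of this model rest on a spread pooled over the replicates of all groups, and not on that of the cjiPSC cultures alone. All of these are cultures of 1 line. Alternatives were edgeR on the 4 libraries, limma 3.58.1 voom with 1 variance per group, DESeq2 1.42.0 on 20 or 4 libraries, its size factors, other filters, glmTreat, the replicate block and each cjiPSC library left out. The steps were tested first on simulated data with the same dispersion in every library. The wider spread of the cjiPSC replicates was thus not simulated. Where a medium had no count, the fold is a lower bound, the mean of the other medium over the mean of the 3-count floors of the 2 libraries. Where it had 1 to 3 counts in all, the ratio of the summed counts over the summed size factors is given with its exact 95% binomial interval (Clopper-Pearson).

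The members and the 58 lists and 27 families were chosen with earlier results of these data known, so they are described by counts and medians and no list was tested. Genes named were members marked in the lists, up to 8 called members of a list or family with the largest log2 fold change and up to 4 uncalled ones with the highest level, the 15 largest changes each way with at least 100 normalised counts in each library of the higher medium and no overlap of the media, and the 10 largest ratios each way between the cjPSCM replicates with at least 200 normalised counts in the higher one. Plots were made with Python 3.11.15 and matplotlib 3.10.9. No reference sequence was used. Some genes within the rule are not reported here.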

Additional observations from a re-analysis of the deposited data

Results flagged for a closer look

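The log2 fold change of cjPSCM over TESR medium differed between cjiPSCs and the pre-ME made from them for a large number of genes, by edgeR's test of the difference itself at an adjusted p under 0.05. It was more positive in cjiPSCs for 683 genes and more negative for 590. Among the genes named above, 73 passed this test. The values that follow are the log2 fold change in cjiPSCs minus that in pre-ME.

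Of the signalling genes, the difference was positive for BCL3 (4.94), KLF5 (2.71), SOCS3 (1.76), OSMR (1.13), IL6ST (1.00), HBEGF (4.84), WNT2 (4.00), INHBB (2.55), AXIN2 (2.27), IER3 (2.61), PAG1 (2.09), DHRS3 (1.96), SPRED3 (1.95), JAG2 (1.43), APCDD1 (1.26), CCND1 (1.14) and HAMP (7.25). It was negative for LIFR (-1.87), CNTFR (-1.05), GBX2 (-1.87), LGR5 (-4.42), SFRP1 (-1.95), SFRP2 (-1.32), SPRY4 (-1.20), DUSP6 (-1.52), FGF13 (-1.89), BMP7 (-3.60), BMP3 (-3.16), BMPER (-2.91), ID3 (-0.92), ID4 (-1.77), CDON (-1.88), SMO (-0.94), NTRK2 (-4.61), EGFR (-0.98) and PDGFRB (-2.23). HBEGF and AXIN2 had opposite signs in the 2 stages, both past an adjusted p of 0.05 in each stage.

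Of the surface, matrix and channel genes, the difference was positive for ITGA2B (4.10), ITGA2 (1.30), ALCAM (2.61), PROM1 (1.53), CD46 (1.28), CGNL1 (1.04), DSC2 (1.09), SLIT3 (2.11), CNTN1 (2.16), ADGRG6 (0.96) and GJA5 (1.20). It was negative for CDH12 (-2.93), NID2 (-1.88), SPP1 (-2.11), LINGO1 (-2.25), KCNQ5 (-5.10) and GJB2 (-4.51).

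Of the metabolic and growth control genes, the difference was positive for SLC37A1 (2.25), ACSL1 (1.46), CDKN2A (1.21), PLK3 (0.95), ZMAT3 (0.97) and CCN1 (1.69). It was negative for STC1 (-3.76), LPL (-1.60) and GLUL (-0.91).

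Of the lineage genes, the difference was positive for STAB1 (3.54), TEK (1.38), RUNX1 (2.03), GATA6 (3.14) and TBX3 (2.36). It was negative for EOMES (-2.78), LHX2 (-2.12), PGF (-2.38), CDX2 (-3.54), POU4F2 (-3.82) and TBX1 (-3.04).

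BCL3, BMP7, HAMP, KCNQ5, CDX2 and POU4F2 had 3 counts or fewer in all in cjiPSCs of 1 medium, where fitted values depend on the prior count. The wider spread of the cjiPSC replicates enters these differences as well, and the pre-ME values rest on 4 libraries per medium. These values average induction with and without ActA. A batch of the pre-ME libraries from TESR medium, if there was one, would enter the differences too.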

How the results depend on the processing

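The counts at both thresholds (871 higher, 579 lower) were 429 and 253 in limma voom with 1 variance per group, and 288 and 172 in glmTreat against a log2 fold change of 2. With DESeq2 on the 4 cjiPSC libraries 352 genes were lower. At an adjusted p under 0.05 alone (2853 and 2863), edgeR on the 4 libraries called 1062 and 732, voom 933 and 645, and DESeq2 on the 4 libraries 1140 and 764. The common dispersion was 0.0203 over all 20 libraries and 0.0772 over the 4. With 1 library left out, the lower genes at both thresholds numbered 437 to 1006, the highest without cjPSCM replicate 2, and the higher genes 690 to 928. At the adjusted p alone they numbered 2039 to 3319 and 2051 to 3290. The lone sample of a medium was then assumed to vary like the other groups. DESeq2 on 20 libraries, its size factors, no filter and a filter at a mean of 1 CPM moved these counts by less than 1.5 times.

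Of 143 named genes called, none changed direction under any alternative. Calls of 11 were lost with edgeR and of 9 with DESeq2 on the 4 libraries, and of 22 with voom. EGR1 and PIAS3 were also lost with DESeq2 on all libraries, without TESR replicate 2 and without cjPSCM replicate 2, and LEF1, LYN, HK2, TET1 and PIAS3 without cjPSCM replicate 1. PIAS3 was further lost with DESeq2's size factors and with no filter. Uncalled genes changed sign where 1 library was left out. PODXL ranged from -0.50 to 0.33, OLIG3 from -4.15 to 1.17, and KRT19 from -3.22 to 0.67, and OLIG3 was -1.98 with voom and -0.12 with the replicate block.

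Deviations of same-numbered libraries of the media had a correlation of -0.0170 over genes, which are not independent. No shared shift by replicate number was thus seen. With 2 libraries per medium this cannot show whether same-numbered cultures were handled together. The replicate block gave 865 genes higher and 579 lower at both thresholds and changed none of the named calls. With a pseudocount of 10 the SD of the log2 ratio of the replicates was 0.662 in cjPSCM and 0.449 in TESR medium, and with TMM-normalised CPM 0.649 and 0.442. In pre-ME, and for the difference between the stages, DESeq2, its size factors and the replicate block moved the counts by less than 1.5 times. The search for promoter motifs was not run. Floors of 3 counts cover counting error only, and fitted log2 fold changes of genes near the floor depend on the prior count.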
